A study of Homo sapiens with 30 samples.

Results

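The 419 gene starts described here are the rows of a deposited table of transcription start values that lie on human chromosome 20, out of 16009 rows in all. They were chosen by position: a row was kept where its gene identifier lies on chromosome 20 in GENCODE 44 (hg38), and the row of PCIF1, the gene targeted in the study, was left out. A limit at 18 Mb divides them into 93 genes that start before it and 326 that start after it. The limit was drawn from input values of KO and control cells, so the input comparison is given below as a description and is not used as a test of the members. GENCODE annotates 1502 genes on the chromosome. Of the 93 genes before the limit 78 are protein-coding, 6 are small nucleolar RNAs (snoRNAs), 5 are long non-coding RNAs and 3 are microRNAs. Of the 326 after it 246 are protein-coding, 33 are long non-coding RNAs, 15 are microRNAs and 8 are snoRNAs.

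The study profiled the 5' ends of capped RNA in MEL624, a human melanoma cell line, by m6Am-Exo-Seq, in which an exonuclease removes fragments without a cap before an antibody against methylated adenosine pulls down the rest. The KO cells lack PCIF1 by label. The control cells are wild-type MEL624 cells that received a random single guide RNA. The second stage of the study holds 3 KO IPs, 3 control IPs, 3 KO inputs and 3 control inputs, with 1 antibody (number 4) in all IPs, where an IP is the RNA that the antibody pulled down and an input is the same kind of RNA before the pull-down. All 4 groups share the cell line, the culture medium and the enrichment of capped 5' ends. By the series' description each of the 4 groups holds biological replicates. That text names 1 clonal KO line for the first stage; how many clones stand behind the second-stage KO samples is left unsaid, so KO and clone cannot be told apart.

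PCIF1 is the methyltransferase that adds a methyl group to the adenosine next to the mRNA cap, which gives the mark m6Am. Only transcripts whose first base is adenosine can carry it. The antibody also binds m6A, the related mark inside transcripts, so reads in the IP need not come from m6Am alone. A gene's place on a chromosome and the first base of its transcript are separate properties, and both are followed below.

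The starts of 9 genes named below are shown first as examples, picked by hand, and the counts and medians below do not rest on them. Each line gives 20 bases before the first transcribed base, that base in capitals, and 19 bases after it, 5' to 3' on the gene's own strand, read from hg38 at the first base of GENCODE's canonical transcript. PCNA (chr20:5119939-5119978, minus strand), IDH3B (chr20:2664197-2664236, minus strand), SOX12 (chr20:325532-325571, plus strand) and CENPB (chr20:3786721-3786760, minus strand) start before 18 Mb. NFS1 (chr20:35699333-35699372, minus strand), LAMA5 (chr20:62367293-62367332, minus strand), TOMM34 (chr20:44960378-44960417, minus strand), FAM210B (chr20:56358954-56358993, plus strand) and ATP5F1E (chr20:59032316-59032355, minus strand) start after it.
PCNA: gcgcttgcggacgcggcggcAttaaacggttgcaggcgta
IDH3B: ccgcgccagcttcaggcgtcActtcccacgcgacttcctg
SOX12: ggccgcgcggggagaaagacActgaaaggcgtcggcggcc
CENPB: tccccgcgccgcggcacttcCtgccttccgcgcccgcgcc
NFS1: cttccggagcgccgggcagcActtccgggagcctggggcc
LAMA5: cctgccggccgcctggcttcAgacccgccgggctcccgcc
TOMM34: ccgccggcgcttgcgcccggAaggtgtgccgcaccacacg
FAM210B: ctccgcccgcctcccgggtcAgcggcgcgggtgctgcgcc
ATP5F1E: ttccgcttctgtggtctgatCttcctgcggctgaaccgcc
The first base is A in PCNA, IDH3B, SOX12, NFS1, LAMA5, TOMM34 and FAM210B, and C in CENPB and ATP5F1E. CENPB and ATP5F1E both rose in the IP and do not stand for starts without A. Of 43 protein-coding genes before the limit with another base than A, 22 fell and 5 rose in the IP. The canonical start lies within 200 bases of the outermost annotated start for 335 of the 419 genes, and 6668 bases from it for PCNA. Which start and window were counted is not given in the sources used here, so a first base describes the annotation and not the reads.

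The KO IPs held 1753164 to 2177874 reads at gene starts, against 4035815 to 4625190 in the control IPs. The KO inputs held 2836120 to 3544669, against 3232562 to 4094070 in the control inputs. PCIF1 itself gave 70.4, 78.0 and 77.1 CPM (reads scaled to the size of the library) in the KO inputs, against 57.8, 52.5 and 49.4 CPM in the control inputs. Reads at its 5' end check nothing about a deletion further inside the gene. Of 8 melanocyte lineage markers only MITF is among the rows, with 9.17 to 10.7 CPM in the KO inputs and 8.25 to 14.1 CPM in the control inputs, so the labelled cell type could hardly be checked. None of the 4 keratinocyte, 4 fibroblast, 4 leukocyte or 4 endothelial markers is among the rows. In bulk RNA such as this, fewer cells of a type and less RNA per cell cannot be told apart.

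Genes before 18 Mb mostly lay lower in the KO IPs than in the control IPs. The limit was drawn from the inputs, and IP and input differences correlated across the chromosome's genes (Pearson's r of 0.586). The IP values are thus not independent of the choice of the limit. The median difference of the genes before it, KO IP minus control IP, was -0.77 on the log2 CPM scale, against -0.02 for the genes after the limit and -0.04 for all genes tested. In limma (Benjamini-Hochberg adjusted p under 0.05 over all 16009 genes), 49 of the 93 fell and 12 rose in the KO IPs. That is 52.7% lower and 12.9% higher, where 49.0% of all genes were called, 26.0% as lower and 23.0% as higher. After the limit 86 of 326 fell (26.4%) and 85 rose (26.1%), shares close to the background. With libraries centred on ribosomal protein mRNAs the all-gene median of this contrast moves to -0.55, the counts become 63 lower and 4 higher before the limit and 149 lower and 31 higher after it, and the 2 medians become -1.28 and -0.53. All directions below are on the deposited scaling.

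In the inputs the genes before 18 Mb had a median difference of -0.61, KO minus control, and those after it 0.03. Of the 93, 83 lay below 0, and limma called 41 lower and 3 higher, where 11.2% of all genes were called, 5.67% as lower and 5.56% as higher. After the limit 16 were called lower and 27 higher. These counts come from the contrast that set the limit and nothing is read from them.

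An offset of the stretch was taken for each library, with the control libraries of the same kind as reference. For each library the log2 difference of every gene from the mean of the control libraries of the same kind was taken, and the median over genes after 18 Mb was subtracted from the median over genes before it. Each control library is part of that mean, which draws the control offsets towards 0. The offset was -0.93, -0.72 and -0.71 in the KO IPs, against -0.04, 0.01 and -0.01 in the control IPs. It was -0.57, -0.58 and -0.61 in the KO inputs, against 0.05, -0.02 and -0.04 in the control inputs. Every KO library lay below every control library of its kind, and the 3 KO inputs lay close together. No test is given for this score, because its members were chosen with earlier results known. The mean offset was -0.785 ± 0.123 in the KO IPs and -0.0136 ± 0.0228 in the control IPs (SD, n = 3 each), and -0.585 ± 0.0218 in the KO inputs and -0.0019 ± 0.048 in the control inputs (SD, n = 3 each).

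**Figure D1:**
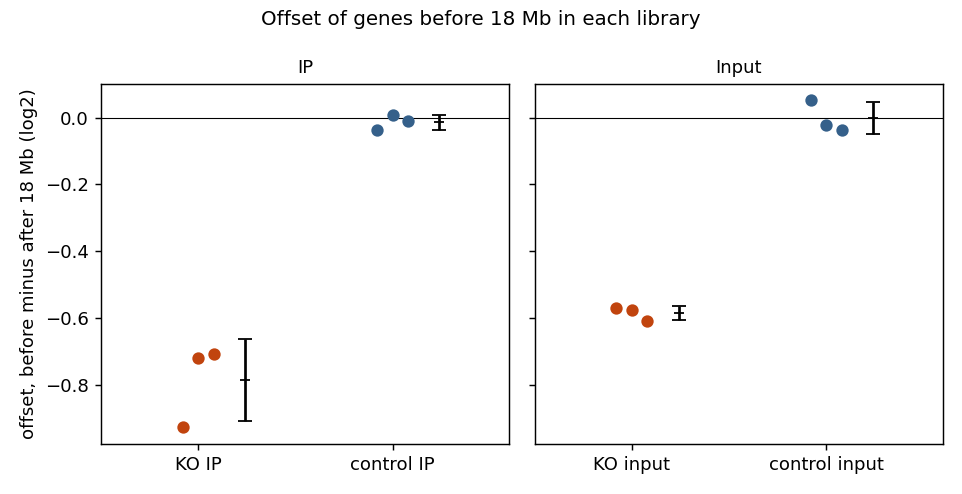
Offset of the genes before 18 Mb (median log2 difference before minus after the limit, vertical axis) in each library, with IPs on the left and inputs on the right. Dots are libraries and the black mark with its bar is the mean and SD of 3; KO libraries sit between -0.93 and -0.57, and control libraries between -0.04 and 0.05.

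In reads, 19.1% ± 0.447 of the chromosome's reads in the KO IPs came from before 18 Mb, against 29.6% ± 0.0998 in the control IPs (SD, n = 3 each). The share was 19.8% ± 0.0826 in the KO inputs and 25.3% ± 0.343 in the control inputs (SD, n = 3 each). The chromosome as a whole took 2.41% of all reads in the KO IPs, 2.91% in the control IPs, 2.63% in the KO inputs and 2.76% in the control inputs. The share from before the limit was lower in KO cells in both kinds of library, of which the inputs set the limit. Starts with many reads weigh most in such a share, among them SNRPB, whose reads are uncertain as described below.

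In windows of 6 Mb along the chromosome, the 67 genes of the first window had a median IP difference of -0.88 and a median input difference of -0.64, and 40 of them fell in the IP. The 14 genes from 6 to 12 Mb had -0.69 in the IP and -0.55 in the input. From 12 to 18 Mb the 12 genes had 0.13 in the IP and -0.30 in the input, and 2 fell while 4 rose in the IP. These 2 windows, and the 17 genes from 24 to 30 Mb, hold under 20 genes each. The 8 genes from 15 to 18 Mb had an IP median of 0.41, and 0 fell while 3 rose in the IP. With the limit at 16 Mb, 49 of 85 genes before it fell and 9 rose in the IP. From 18 Mb on, the input medians lay between -0.15 and 0.26. The highest of them belonged to the 68 genes from 60 to 66 Mb at the other end of the chromosome, where the IP median was 0.34 and 24 genes rose while 10 fell in the IP. The IP median was -0.34 for the 61 genes from 30 to 36 Mb, where the input median was -0.03.

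**Figure D2:**
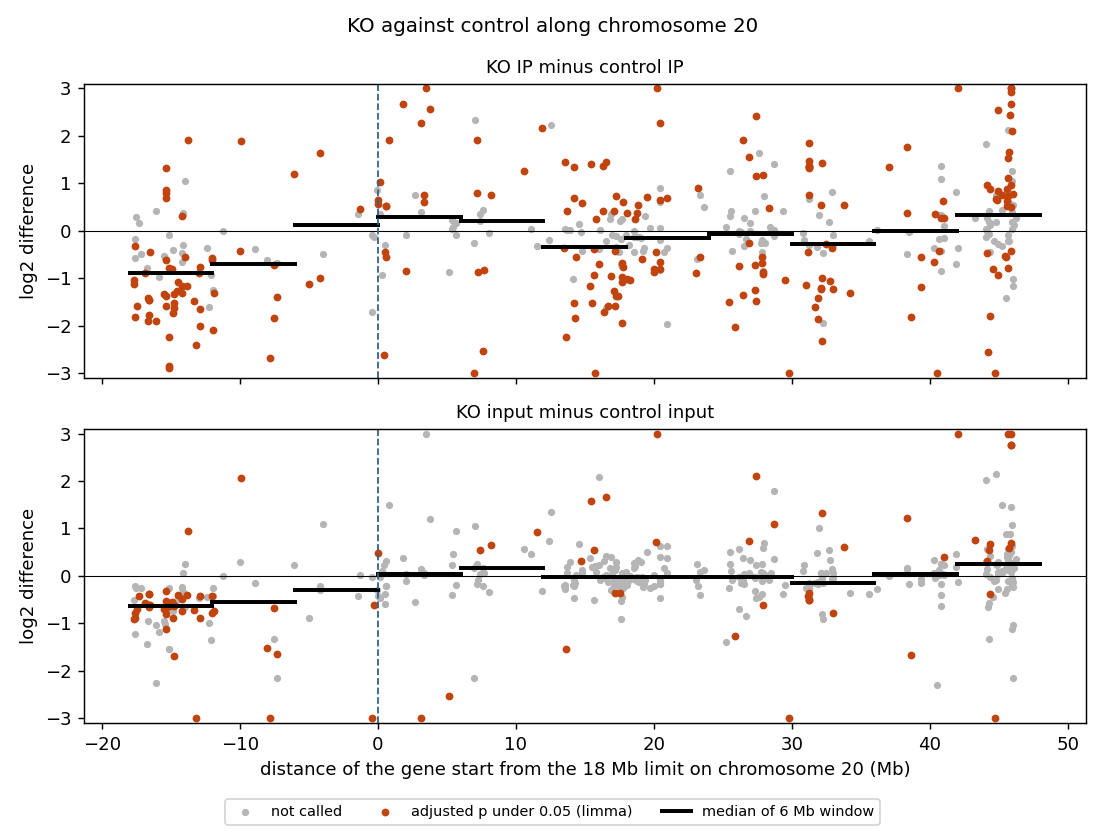
Log2 difference of each of the 419 gene starts, KO minus control (vertical axis), against the distance of the start from the 18 Mb limit (horizontal axis, Mb), in the IPs above and in the inputs below. Orange dots passed limma, grey dots did not, black bars are medians of 6 Mb windows, and 10 IP and 11 input values beyond 3 are drawn at 3; dots left of the dashed line sit mostly below 0 in both panels.

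The border was not sharp at single genes, as the 10 well-read genes nearest to the limit show. Inside it, RRBP1, a ribosome-binding protein of the endoplasmic reticulum, had an input difference of -0.62 and an IP difference of -0.14, which did not pass. SNX5, a sorting nexin, rose by 0.56 in the IP, with an input difference of 0.49. MGME1, an exonuclease of mitochondrial DNA, rose by 0.65 in the IP beside an input difference of -0.43. SNRPB2, a protein of the U2 spliceosomal particle, rose by 0.46 in the IP (-0.050 with ribosomal protein centring) and had 0.01 in the input, and DSTN, an actin-depolymerising factor, had -0.09 and -0.02. Outside it, KAT14, a subunit of a histone acetyltransferase complex, rose by 1.03 in the IP with -0.48 in the input. SEC23B, a coat protein of transport vesicles, fell by 0.46 in the IP (limma adjusted p = 0.0494) with -0.39 in the input, and SMIM26 rose by 0.53 with -0.21. RBBP9 had -0.30 and -0.59, and PET117 0.35 and -0.03, of which neither IP value passed. Nor did the IP value of DSTN. Among these 10 genes only RRBP1 and SNX5 passed limma in the input, so the other input values are not called changes.

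The counts of role lists that follow stand beside 52.7% lower and 12.9% higher among all 93 genes before the limit in the IP, and nothing particular to a list is read from them. Replication and cell cycle genes before the limit fell in 3 of 4 cases in the IP, with a list median of -0.89 against -0.04 over all genes. PCNA, the sliding clamp of DNA polymerases (5114953 to 5126626 in hg38, minus strand), had 162, 172 and 157 CPM in the KO IPs, against 637, 651 and 690 CPM in the control IPs. It had 113, 107 and 90.7 CPM in the KO inputs, against 185, 193 and 192 CPM in the control inputs. Every KO library lay below every control library of its kind, and PCNA fell by 2.01 ± 0.09 (SE) in the IP (limma adjusted p = 6.59e-12) beside an input difference of -0.89. CDC25B, a phosphatase that activates cyclin-dependent kinases, fell by 1.16 in the IP, and MCM8, a helicase of DNA repair, by 0.62. CENPB, which binds centromeric DNA, was the exception, with 187, 202 and 160 CPM in the KO IPs against 158, 141 and 142 CPM in the control IPs. Its IP values do not overlap, and it rose by 0.31 ± 0.09 (limma adjusted p = 0.00997), which becomes -0.20 with ribosomal protein centring and 0.24 without the second KO IP (adjusted p = 0.0604).

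Mitochondrial protein genes before the limit fell in 4 of 7 cases in the IP (57.1%) and rose in 1, with a median of -0.81. CRLS1, the cardiolipin synthase, had 24.6, 33.2 and 40.7 CPM in the KO IPs, against 134, 144 and 133 CPM in the control IPs. It had 86.4, 72.6 and 83.2 CPM in the KO inputs, against 106, 115 and 102 CPM in the control inputs. Both pairs of groups stood apart, and CRLS1 had the strongest fall of the well-read named genes before the limit, -2.09 ± 0.14 in the IP (limma adjusted p = 6.96e-10). Its input difference of -0.42 did not pass. IDH3B, a subunit of the citrate cycle's isocitrate dehydrogenase, had 92.3, 88.7 and 67.0 CPM in the KO IPs, against 236, 202 and 203 CPM in the control IPs. It fell by 1.38 ± 0.12 in the IP (limma adjusted p = 2e-08). NDUFAF5, an assembly factor of respiratory complex I, also fell, with 16.3, 20.0 and 19.5 CPM in the KO IPs, against 41.5, 29.7 and 41.5 CPM in the control IPs. MRPS26, a protein of the mitochondrial ribosome, fell by 0.81. PANK2, the mitochondrial pantothenate kinase, had -0.30 and did not pass.

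Genes of RNA processing before the limit were divided, with 2 of 4 lower and 2 higher in the IP and a median of -0.05. SNRPB, a core protein of the spliceosomal particles, had 537, 728 and 645 CPM in the KO IPs, against 1537, 1606 and 1662 CPM in the control IPs. All KO IPs lay below all control IPs, and it fell by 1.34 ± 0.11 (limma adjusted p = 1.19e-08), although an unnamed gene of the same strand starts close by, which makes its reads uncertain. TRMT6, a subunit of a tRNA methyltransferase, fell by 0.57. ESF1, a nucleolar protein, rose by 1.63 from few reads.

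Among 9 genes of protein turnover and membrane traffic, 5 fell (55.6%) and 1 rose in the IP, with a median of -0.43. FKBP1A, the immunophilin that binds rapamycin, fell by 1.46, PSMF1, a regulator of the proteasome, by 0.88, and NSFL1C, a cofactor of the segregase p97, by 0.44. RBCK1, part of the linear ubiquitin ligase complex, had -0.17 and did not pass. Among 11 genes of signalling and adhesion, 6 fell and 1 rose in the IP, with a median of -1.08. PRNP, the prion protein gene, had 38.8, 34.7 and 32.1 CPM in the KO IPs, against 99.3, 101 and 93.7 CPM in the control IPs, with every KO value below every control value, and it fell by 1.48 ± 0.12. FERMT1, an adaptor of integrins, fell by 1.30, and ATRN, attractin, by 1.08. PTPRA, a receptor tyrosine phosphatase, had -0.09 in the IP and did not pass. PLCB1, a phospholipase of G protein signalling, was the 1 that rose, by 1.89, with 2.07 in the input.

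The remaining genes named by size before the limit were TRIB3, MIR6869 and FASTKD5 among those that fell, and ADRA1D, BTBD3 and 3 snoRNAs among those that rose in the IP. TRIB3, a pseudokinase of the stress response, had 29.5, 39.0 and 37.3 CPM in the KO IPs, against 123, 123 and 123 CPM in the control IPs, and fell by 1.81 ± 0.13. FASTKD5, a mitochondrial RNA processing factor, fell by 1.74, and MIR6869, a microRNA whose start lies by that of FKBP1A, by 1.78. ADRA1D, an adrenergic receptor, had 64.8, 62.9 and 56.2 CPM in the KO IPs, against 19.2, 12.7 and 17.6 CPM in the control IPs. Its groups stood far apart, with a rise of 1.91 ± 0.21 in the IP and a difference of 0.95 in the input. In the input, ANKEF1 had the lowest well-read value before the limit (-1.53), followed by SNORD57 (-1.13) and the transcription factor gene SOX12 (-0.91). SOX12 fell by 1.03 in the IP.

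**Figure D3:**
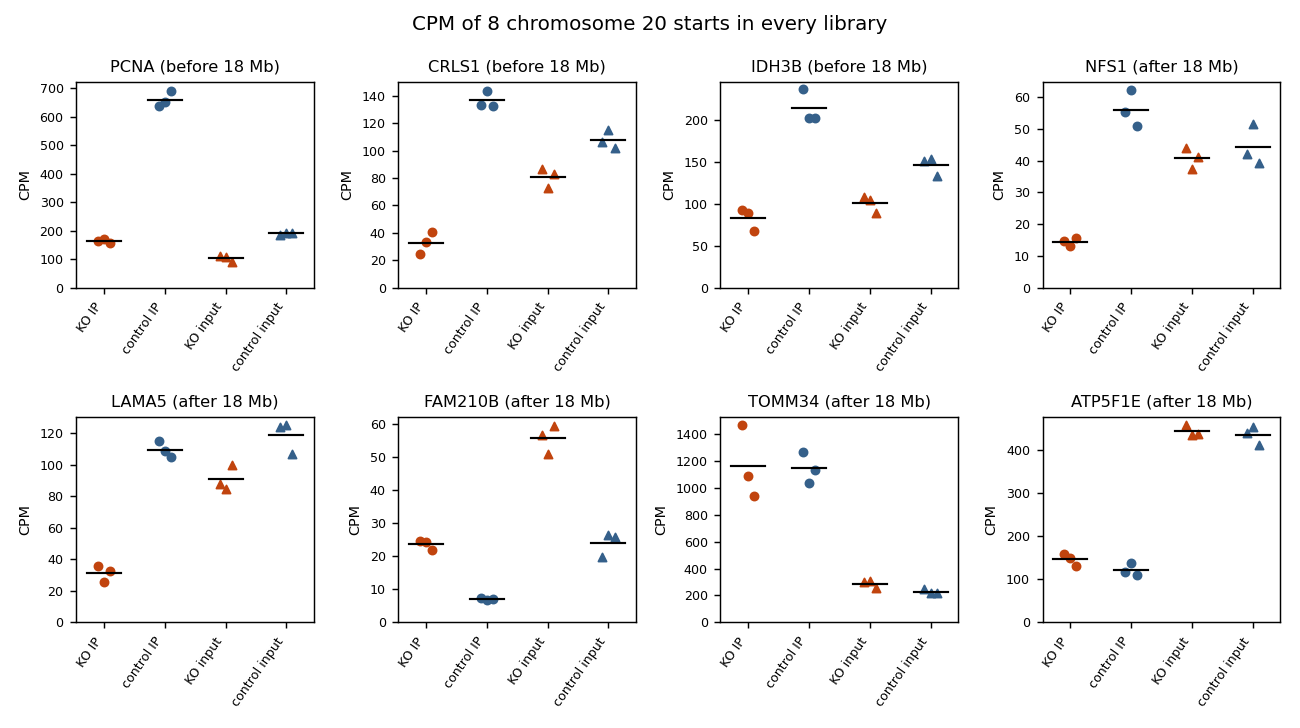
CPM (vertical axis, from 0) of 8 starts in each of the 12 libraries, with KO IP, control IP, KO input and control input from left to right, dots or triangles for libraries and a black line for the mean of 3. The KO IPs of PCNA, CRLS1, IDH3B, NFS1 and LAMA5 lie below the control IPs, those of FAM210B above them, and those of TOMM34 among them.

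How the 2 kinds of library moved together was counted gene by gene. Before 18 Mb, 33 of 93 genes (35.5%) were called lower in both IP and input, against 3.43% of all 16009 genes. A further 16 (17.2%) were called lower in the IP and not in the input, against 22.6% of all genes, and 8 (8.6%) the other way round, against 2.24%. In 69 of the 93 (74.2%) both differences lay below 0, against 30.9% of all genes. The input calls and signs in these counts come from the contrast that set the limit. Across the 93 genes the IP difference and the input difference had a Pearson's r of 0.495 and a Spearman's rho of 0.44, against 0.499 and 0.278 over all genes. These correlations are across genes, which share their libraries and are not independent replicates. The KO IPs lay wholly below the control IPs in 53 of the 93 genes and wholly above them in 12, where 28.6% and 26.0% of all genes did so, 54.6% in all.

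The difference of enrichment, KO IP minus KO input less the same in control cells, takes the input out of the IP change. Its median was -0.15 before 18 Mb and -0.15 after it, against -0.06 over all genes. Without the first KO IP the medians were -0.030 before the limit and -0.15 after it, and with only genes of mean log2 CPM of at least 5 they were -0.32 and -0.16. Leaving out any 1 of the 12 libraries gave -0.15 to -0.030 before the limit and -0.16 to -0.093 after it, and voom on recovered reads -0.081 and -0.057. It passed as lower for 23 and as higher for 11 of the 93 genes, and as lower for 65 and higher for 40 of the 326, where 28.8% of all genes were called, 15.8% as lower and 13.0% as higher. Over the chromosome 88 genes were lower and 51 higher, which becomes 169 and 19 with ribosomal protein centring, under which the all-gene median of this contrast moves to -0.61. Which stretch had the lower median thus changed with the setting, and no test of a difference between them was made.

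By first base, protein-coding genes of both stretches followed the order of the whole table in the IP and in the difference of enrichment. In the latter the gap between first bases was smaller before the limit. In the IP the 35 genes before the limit with A as first base had a median of -1.15, and 23 of them fell, against -0.58 and 22 of 43 for those with another base. After the limit the medians were -0.28 for 119 genes with A, of which 44 fell, and -0.02 for 127 genes with another base, of which 32 fell. Over all genes they were -0.36 (41.4% lower) and -0.01 (23.7% lower). In the input the medians before the limit were -0.54 with A and -0.50 with another base, in the contrast that set the limit. In the difference of enrichment the medians were -0.25 with A and -0.08 with another base before the limit, -0.37 and -0.04 after it, and -0.37 and -0.02 over all genes. With only genes whose annotated starts lie within 200 bases of each other, the IP medians before the limit were -1.12 with A and -0.56 with another base. The same restriction gave -0.26 with A and -0.18 with another base in the difference of enrichment before the limit. After it the medians of that measure were -0.34 and -0.06, and over all genes -0.38 and -0.01.

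**Figure D4:**
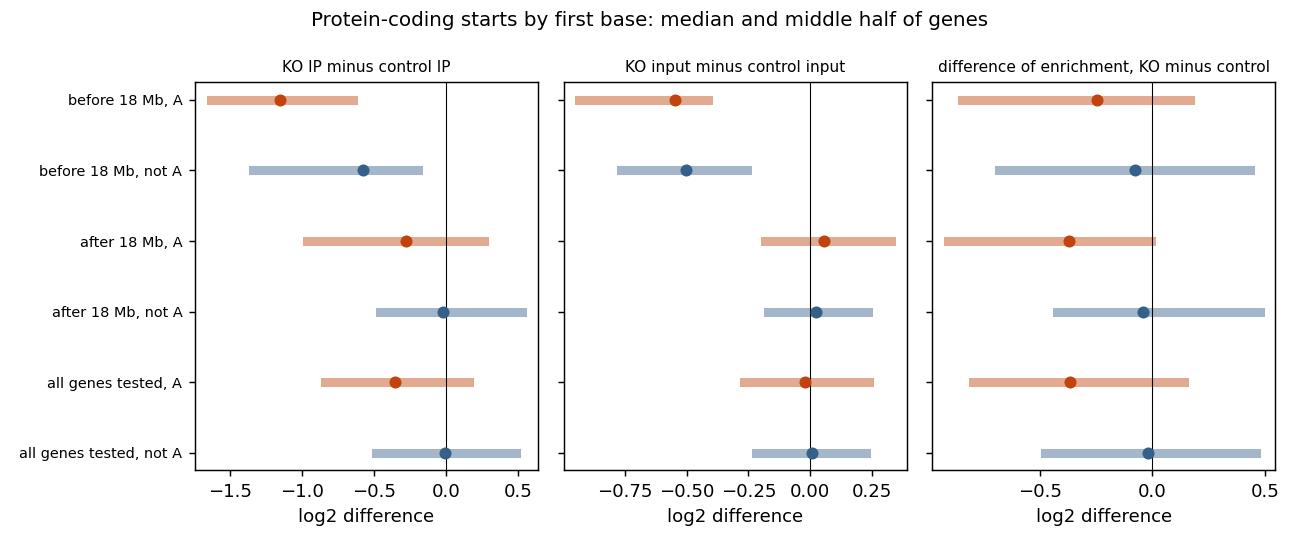
Median (dot) and interquartile range (bar) of the log2 difference (horizontal axis) over protein-coding genes by first base, for genes before 18 Mb, after it and over the whole table, in the IPs, in the inputs and in the difference of enrichment. In the IPs genes with A lie left of those with another base in each of the 3 sets, at -1.15, -0.28 and -0.36; in the inputs both kinds lie near -0.5 before the limit and near 0 elsewhere.

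After 18 Mb the IP changes ran both ways. NFS1, the cysteine desulfurase of iron-sulfur cluster assembly, had 14.8, 13.2 and 15.5 CPM in the KO IPs, against 55.3, 62.3 and 50.8 CPM in the control IPs. It had 44, 37.4 and 41.3 CPM in the KO inputs, against 42.0, 51.6 and 39.2 CPM in the control inputs. The IP groups stood apart while the input groups overlapped. NFS1 fell by 1.95 ± 0.14 in the IP (limma adjusted p = 1.43e-09) and had the input difference -0.11, and its difference of enrichment fell by 1.84 ± 0.20 (adjusted p = 1.26e-06). LAMA5, a laminin chain, had 35.9, 25.9 and 32.7 CPM in the KO IPs, against 115, 108 and 105 CPM in the control IPs, and its difference of enrichment fell by 1.42. Of the well-read named genes, ITCH, a ubiquitin ligase, fell most in this measure (-2.01 ± 0.37), followed by NFS1, CBFA2T2, a transcriptional corepressor (-1.71), PIGT, a subunit of the enzyme that attaches lipid anchors (-1.70), and CRLS1 from before the limit (-1.67).

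Other falls in the IP after the limit went with low inputs. ID1, an inhibitor of helix-loop-helix factors, had 7.92, 10.3 and 12.7 CPM in the KO IPs, against 47.8, 47.6 and 47.5 CPM in the control IPs. It had 12.4, 11.2 and 16.3 CPM in the KO inputs, against 37.2, 37.9 and 38.9 CPM in the control inputs. The groups stood apart in both kinds of library, with a fall of 2.24 ± 0.18 in the IP and a fall of 1.53 ± 0.18 in the input (limma adjusted p = 8.47e-06). TOX2, an HMG box protein, fell by 2.03 and 1.26, and TFAP2C, a transcription factor of the AP-2 family, by 1.82 and 1.67. KCNG1, a potassium channel subunit, and PLTP, the phospholipid transfer protein, fell by 0.78 and 0.60 in the input.

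Of the genes that rose after the limit, FAM210B, a mitochondrial protein gene whose first base is A, had 24.6, 24.4 and 21.8 CPM in the KO IPs, against 7.30, 6.64 and 6.93 CPM in the control IPs. It had 56.6, 51.0 and 59.5 CPM in the KO inputs, against 19.7, 26.4 and 25.8 CPM in the control inputs. All KO libraries lay above all control libraries of their kind, and FAM210B rose by 1.76 ± 0.16 in the IP and by 1.23 ± 0.16 in the input. PABPC1L, a poly(A)-binding protein, rose by 1.56 and 0.74. SLC13A3, a transporter of dicarboxylates, CDH4, a cadherin, and TGM2, a transglutaminase, rose by 1.09, 0.75 and 0.71 in the input.

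The lists of gene roles after the limit held falls and rises, beside 26.0% lower and 23.0% higher over all genes, and nothing particular to a list is read from their counts. Of 14 genes of mitosis and the cell cycle, 5 fell (35.7%) and 4 rose (28.6%) in the IP, with a median of -0.12. CSE1L, a nuclear export receptor, fell by 1.14, TOP1, the DNA topoisomerase, by 0.90, and UBE2C, a ubiquitin-conjugating enzyme of mitotic exit, by 0.55, while TPX2, a spindle protein, had 0.02 and did not pass. Of 16 genes of transcription and chromatin, 5 fell and 3 rose, with a median of 0.15. CEBPB, a leucine zipper transcription factor, had 103, 106 and 104 CPM in the KO IPs, against 211, 187 and 228 CPM in the control IPs. The chromatin proteins ASXL1 and ADNP fell by 0.55 and 0.37, and the coactivator NCOA6 had 0.25 and did not pass. Of 11 genes of RNA binding and processing, 6 fell and 3 rose, with a median of -0.49. The splicing factor SRSF6 had 53.0, 58.5 and 64.2 CPM in the KO IPs, against 175, 160 and 163 CPM in the control IPs, where the groups stood far apart. RBM39, another splicing factor, fell by 0.78, and the RNA-binding proteins RBM12 and RALY fell by 1.09 and 0.71.

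Of 5 mitochondrial protein genes after the limit, 2 fell and 1 rose, with a median of -0.0011. ROMO1, a protein of the inner membrane, fell by 0.97, ACSS2, an acetyl-CoA synthetase which is found mainly outside the mitochondrion, by 0.96, and ATP5F1E, a subunit of the ATP synthase, rose by 0.27, a value of -0.24 with ribosomal protein centring. That call was lost without the trend and without the first or the third control IP or the first or the second KO IP (0.20 to 0.25, limma adjusted p of 0.078 to 0.156). Of 10 genes of protein turnover, lysosome and traffic, 5 fell and 3 rose, with a median of -0.31. In the IP the lysosomal protease CTSA stood at -0.90, the proteasome subunit PSMA7 at -0.46, the membrane fusion protein STX16 at -0.43 and the protease CTSZ, which did not pass, at -0.15. Of 8 genes of signalling and survival, 3 fell and 2 rose, with a median of -0.05. GNAS, a G protein subunit, rose by 0.26 (-0.25 with ribosomal protein centring), and BCL2L1, an inhibitor of apoptosis, by 0.42 (-0.0902 with that centring). The start of GNAS is one of several widely spaced starts of that locus.

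In control cells the antibody enriched starts on chromosome 20 about as often as over the whole table. IP minus input was higher for 120 and lower for 127 of the 419, where 55.9% of all genes were called, 27.7% as higher and 28.2% as lower, and ribosomal protein centring turns this to 263 higher and 37 lower. In KO cells 100 were higher and 154 lower, where 59.4% of all genes were called, 28.4% as higher and 31.0% as lower, with 170 and 73 under that centring. TOMM34, a cofactor of chaperones in import into mitochondria, had the highest enrichment of the well-read named genes in control cells, 2.33 ± 0.13, and was among the 5 highest in KO cells. It had 1464, 1087 and 937 CPM in the KO IPs, against 1270, 1034 and 1136 CPM in the control IPs, so that the groups overlapped although its first base is A. The coactivator NCOA3 (2.17), the phosphatase PTPN1 (1.95), the replication factor GINS1 (1.85) and the kinase STK4 (1.80) followed in control cells. In KO cells SNORD57 (3.28), GINS1 (2.17) and KAT14 (2.09) were highest. MIR4758, MIR663A, SNORA71C, SNORD86 and SNORD12C were lowest in control cells, between -3.79 and -2.89. MIR663A, SNORA71C, SLC2A4RG, MIR4758 and PIGT were lowest in KO cells, between -3.12 and -2.60.

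Non-coding starts had higher median IP differences than coding ones on both sides of the limit. The 15 before it had a median IP difference of 0.37, against -0.89 for the 78 coding genes, but were divided, with 4 called higher and 4 lower. The 80 after it had 0.75, against -0.12 for the 246 coding genes, with 35 called higher and 10 lower. Over all genes the 3962 non-coding starts had 0.67, with 34.7% called higher and 8.28% lower. In the input the medians were -0.66 (non-coding) and -0.54 (coding) before the limit, and -0.03 and 0.04 after it. SNORD57, a snoRNA that lies within the gene NOP56, had 162, 166 and 186 CPM in the KO IPs, against 85.5, 93.5 and 117 CPM in the control IPs. It had 18.7, 15.5 and 18.6 CPM in the KO inputs, against 34.2, 36.0 and 45.9 CPM in the control inputs. The KO libraries lay above the control libraries in the IP and below them in the input. SNORA51 and SNORD56 lie within the same host gene and ran the same way. SNORD86, also a snoRNA before the limit, rose by 0.69 in the IP, and its input difference of -0.73 did not pass. SNORD12, within the host gene ZFAS1 after the limit, rose by 1.85 in the IP with an input difference of -0.44. Its difference of enrichment rose by 2.30 ± 0.27, and that of MIR1825, which lies by POFUT1, rose by 1.80. Each of these overlaps a gene of the same strand, so reads of the host transcript cannot be told from theirs.

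The depth of the KO IPs was lower than that of the other groups, and the SD of the offset was largest there. Of the 419 genes, 268 had a mean of at least 3 on the log2 CPM scale, 60 before the limit and 208 after it. With these alone the offset was -0.58 in the IP and -0.47 in the input. Reads of 100 genes are uncertain because a gene of the same strand overlaps the start or begins within 200 bases of it; without them the offset was -0.61 in the IP and -0.54 in the input. Beside the snoRNAs and microRNAs, the genes named above with such reads are CRLS1, SNRPB, FKBP1A, NSFL1C, FASTKD5, ANKEF1, SNX5, PET117, SMIM26, ITCH, RBM12, SRSF6, STX16, SLC13A3 and SLC2A4RG.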

How the data were processed

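The 12 second-stage libraries were analysed; 18 first-stage libraries were not used here. The deposited values are log2 CPM at gene starts, 1 column per library. The submitters' processing notes list hg38 as build and, as tools in no stated role, edgeR 3.12.1, R 3.3.3, featureCounts, HISAT2 2.0.4, deepTools 3.0.2 and SAMtools 1.7; window, annotation and strand setting are not given there. An added count of 0.25, scaled to library size, turned 100% of values into whole reads within 0.01, which gave the depths. On this scale the change of genes with few reads is understated, and reads carry no molecular identifiers.

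Columns carry numbers and labels carry letters, so columns were assigned to groups only. GENCODE 44 (hg38) matched 15903 of 16009 identifiers; 392 of the 419 members have a name. Group means of the 4 groups were fitted with limma 3.58.1 (R 4.3.3), with a mean-variance trend and Benjamini-Hochberg adjustment over 16009 genes. The fit was tested on simulated data drawn from the mean control input profile, with changes planted only in the KO IPs. Far fewer genes were changed there than were called here in the IP. The p-values given measure the spread between the libraries of the study, which may be technical. The members, the limit, the role lists and the settings were chosen with earlier results of these data known. Named genes are the 5 well-read genes on each side of the limit, the 5 largest changes each way among genes with mean log2 CPM of at least 3, adjusted p under 0.05 and no overlap between libraries, and up to 4 genes of each role list by level; NDUFAF5, NSFL1C, PLCB1 and E2F1 (also of those lists) and RPL24P2 were added after their values were seen. Not in the table from the lists are RAD21L1, NOP56, UBOX5, POLR3F, PMEPA1, BIRC7, MMP9, EYA2 and BMP7. Alternatives were 2 scalings, filters at 3 and 5, an added count of 2, no trend, only the libraries compared, a replicate block, limits at 16 and 20 Mb, and leaving out libraries or uncertain genes; limma voom on recovered reads and protein-coding genes alone were chosen after seeing the data. Python 3.11.15, pandas 2.3.3 and numpy 2.4.6 did the rest.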

Additional observations from a re-analysis of the deposited data

Results flagged for a closer look

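Of the 419 starts, 10 (2.39%) were called in opposite directions in the IP and in the input, against 1.43% of all genes. Of these, 2 are short RNAs within ZFAS1 that have no gene name (1.67 and 1.86 in the difference of enrichment). The other 8, whose input calls come from the contrast that set the limit, are described below. They were kept because each has a gene name and its difference of enrichment, KO minus control, passed limma, so passing is no further test. Before 18 Mb these were SNORA51 (2.01 ± 0.27, adjusted p = 1.62e-05; 1.33 in the IP and -0.69 in the input), SNORD56 (1.67 ± 0.24; 0.86 and -0.81) and SNORD57 (1.93 ± 0.19; 0.80 and -1.13). Each of them is a snoRNA within NOP56. After the limit, SNORD12B had 1.86 ± 0.16 (1.36 in the IP and -0.50 in the input). TGM2 had -1.16 ± 0.16 (-0.45 and 0.71), PSMA7 -0.78 ± 0.11 (-0.46 and 0.32) and E2F1, a transcription factor of the cell cycle, -0.93 ± 0.21 (-0.39 and 0.54). RPL24P2, a pseudogene, had 5.47 ± 1.23 (2.27 and -3.20) from few reads, with 2.04, 3.97 and 6.37 CPM in the KO IPs, against 1.01, 1.39 and 0.330 CPM in the control IPs. The part of overlapping host transcripts in the snoRNA values was not tested.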

How the results depend on the processing

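The offset stayed negative under every alternative computed for it, and in the input the choice of the limit fixes that sign. Centring shifts all genes of a library alike and cannot change the offset. Nor was the offset computed with voom, without the trend or with a replicate block. In the IP it was -0.58 with genes of mean log2 CPM of at least 3, -0.64 with the limit at 20 Mb and -0.61 without genes that start in or near another gene, and leaving out 1 library gave -0.81 to -0.70. In the input it was -0.47 and -0.54 with filters at 3 and 5, -0.55 with an added count of 2, -0.54 with the limit at 20 Mb and -0.54 without uncertain genes, and leaving out 1 library gave -0.60 to -0.56. Centring on the 76 ribosomal protein mRNAs gave 4 higher before the limit in the IP, 149 lower and 31 higher after it, 10 lower after it in the input, 37 lower and 263 higher in control enrichment, 73 and 170 in KO enrichment, and 169 and 19 in the difference. The filter at 5 leaves fewer genes: 27 lower and 3 higher before the limit and 45 and 36 after it in the IP, 1 higher before it and 10 lower and 11 higher after it in the input, 54 lower in control enrichment, 67 lower and 58 higher in KO enrichment, and 33 higher in the difference; the filter at 3 gave 16 higher after the limit in the input. Without uncertain genes 7 were higher before the limit and 52 after it in the IP, 26 lower before it in the input, 84 lower in control enrichment and 27 higher in the difference. Protein-coding genes alone gave 51 higher after the limit in the IP and 32 higher in the difference. After the limit in the input, limma without the trend gave 8 lower and voom 42 higher, and leaving out 1 library gave 9 to 17 lower and 15 to 30 higher: 15 higher without KO input 3, 17, 15 and 15 higher without control inputs 1, 2 and 3, and 9 lower without control input 1 or 2; the cause was not tested. Other counts without 1 library ranged, before the limit, over 45 to 51 lower and 9 to 12 higher (IP) and 32 to 43 and 3 to 3 (input), after it over 73 to 89 and 65 to 85 (IP), and over the chromosome over 114 to 133 lower and 106 to 123 higher in control enrichment, 137 to 154 and 95 to 100 in KO enrichment, and 76 to 87 and 41 to 56 in the difference.

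Over named genes, 3612 values kept their side of the threshold, 68 lost and 38 gained the call, and 7 reversed, all under ribosomal protein centring: SNRPB2 (-0.050), CENPB (-0.20), TPX2 (-0.49), ATP5F1E (-0.24), GNAS (-0.25), BCL2L1 (-0.0902) and STK4 (-0.34). A change of sign counted as reversed only where the value was called in the main or the alternative setting. The 3612 can therefore include uncalled values that changed sign. Deviations from the group mean were correlated between IPs and inputs, over genes with mean log2 CPM of at least 3. Columns with the same number gave 0.197, 0.0697 and 0.244 in KO cells and 0.161, 0.0894 and 0.226 in control cells. Each correlated best with its own number, and unlike numbers gave -0.223 to 0.0512. Whether the same number marks paired samples was not tested. A replicate block gave 48 lower and 12 higher before the limit and 90 and 87 after it in the IP. EdgeR and DESeq2 on recovered reads were not run. Depth limits the KO IPs most.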
